A study of Aquilegia coerulea with 32 samples.

Results

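The genes that varied most closely together between floral buds of the same developmental stage were described here, at both ends of a shared axis. *Aquilegia* × *coerulea* ‘Kiragami’, a columbine of the buttercup family, was sampled as wild-type plants at 4 stages of early floral development. The stages ran from s1, with stamen primordia still initiating, through s2, with stamen and staminode primordia in place, and s3, with the rims of the carpel primordia raised, to s4, with the apex used up by the carpels. Each stage had 8 libraries, 32 in all, made from a pair of buds of different plants at s1, s2 and s3 and from a single bud at s4, so that a library holds whole buds with part of their sepals and averages over all their cells. No treatment, genotype or batch distinguished the libraries in the labels. The study took more buds than it had plants, so that libraries can share plants, and which ones do is not given in the sources used here.

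Members were selected by their measured values. Expression was taken as log2(TPM + 1), where TPM is the share of a transcript in its library after division by its effective length, scaled to a fixed sum. The mean of each stage was subtracted from every gene, and each gene was correlated over the 32 libraries with *Aqcoe5G073700*, a locus with a transcript of 10755 bases whose function is not given in the sources used here. Of 30023 transcripts in the files, 14274 had a mean of at least 5 TPM, and the 100 with the highest and the 100 with the lowest Pearson r were taken as the high-r and the low-r end, 200 members in all. *Aqcoe5G073700* itself and *Aqcoe7G340300*, the homolog of *DA2*, were left out of both ends. *DA2* encodes a RING-type ubiquitin ligase that limits organ size in *Arabidopsis*. All r values below come from the choice itself or from the same libraries and are descriptions without a test.

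Dormancy-associated genes are known from axillary buds, where their transcripts are abundant at rest and decline as a bud grows out. Genes for ribosomes, mitochondrial energy supply and protein folding are known to be highly expressed in growing tissue. Chaperones of the Hsp70 family fold newly made proteins, and the BiP members do so in the endoplasmic reticulum. In whole buds, fewer cells of a type and less RNA of a gene per cell cannot be told apart.

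The anchor gene ran over 1.74-fold within s1, 2.06-fold within s2, 2.09-fold within s3 and 2.62-fold within s4. *Aqcoe5G073700* had a lowest, median and highest value of 29.9, 37.9 and 52.0 TPM at s1, 25.7, 36.3 and 53.0 TPM at s2, 25.4, 42.5 and 53.2 TPM at s3, and 23.3, 28.2 and 61.1 TPM at s4. The 4 stages overlapped over most of this range. *Aqcoe7G340300* followed it with an r of 0.953, which placed it ninth among all genes, and ran from 12.9 to 37.8 TPM at s4 and from 29.7 to 52.3 TPM at s1.

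The member with the largest within-stage SD on the log2 scale (1.98) was the dormancy-associated gene of the high-r end. *Aqcoe1G257200* is the homolog of *DRM1*/*DYL1*, a gene whose transcript is abundant in dormant axillary buds of pea and declines when these start to grow (r = 0.943, 668 bases). It had a lowest, median and highest value of 583, 2459.9 and 7866 TPM at s1, 269, 2061 and 11389 TPM at s2, 221, 2686 and 11690.2 TPM at s3, and 63.6, 245 and 9942 TPM at s4. The highest library exceeded the lowest by 13.5-fold (s1), 42.4-fold (s2), 52.9-fold (s3) and 156-fold (s4). Replicate 5 of s1, replicate 7 of s2 and s3 and replicate 4 of s4 were the highest libraries, and replicate 8 of s1, replicate 2 of s2, replicate 3 of s3 and replicate 2 of s4 the lowest.

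The second annotated member of this end, *Aqcoe5G309900*, belongs to the adenine nucleotide alpha hydrolases-like superfamily (r = 0.937, 825 bases). Its lowest, median and highest values were 35.4, 96.7 and 290.2 TPM at s1, 15.6, 81.8 and 636 TPM at s2, 11.2, 96.9 and 621 TPM at s3, and 3.69, 8.51 and 563 TPM at s4. At s4, 6 of the 8 libraries lay under 15 TPM, replicate 3 had 63.4 TPM and replicate 4 had 563 TPM. The libraries that were highest for *Aqcoe1G257200* in each stage were also highest for *Aqcoe5G309900*.

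**Figure D1:**
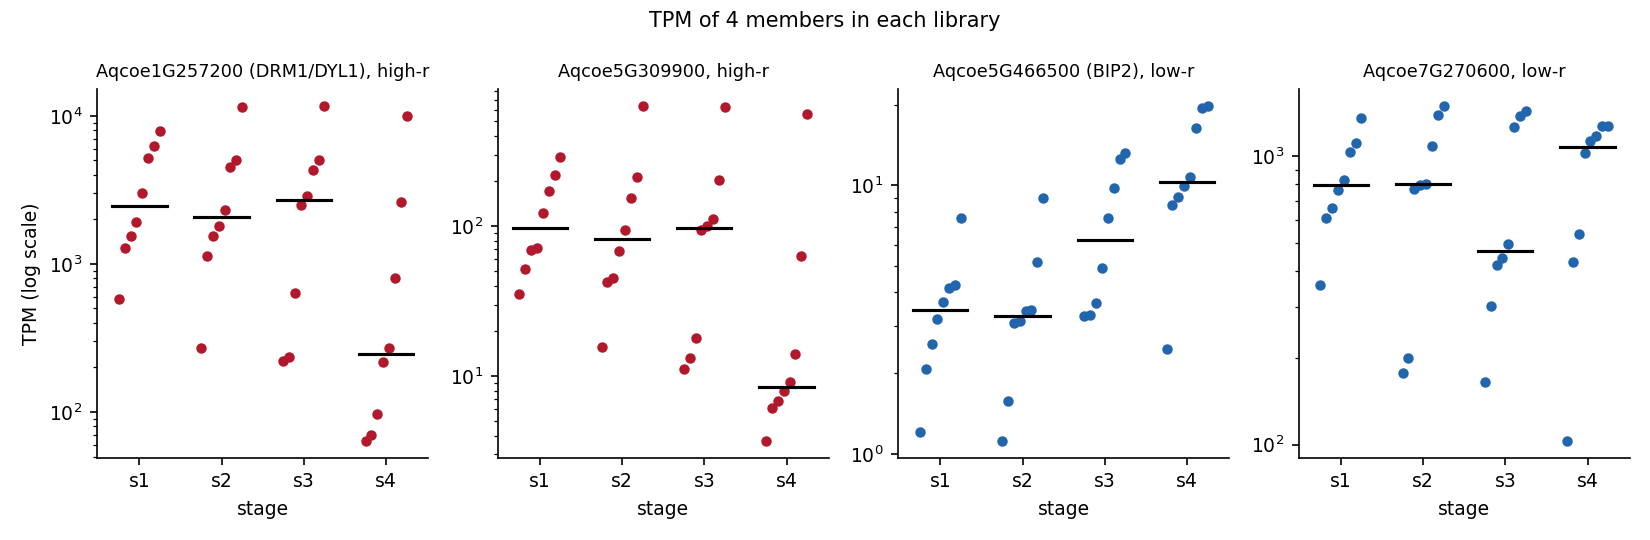
TPM of 4 members in each of the 32 libraries, 8 points per stage ordered by value, on a log axis with the stage median as a black bar; red marks the high-r end and blue the low-r end. *Aqcoe1G257200* spanned 63.6 to 9942 TPM within s4 alone, and *Aqcoe5G466500* was higher at s4 (median 10.3 TPM) than at s1 (median 3.44 TPM).

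Other members with wide swings, named after their values had been seen, carry no annotation in the tables of the study. *Aqcoe5G473900* ran from 4.80 to 369 TPM at s4, *Aqcoe2G056600* from 13.5 to 333 TPM, *Aqcoe7G173100* from 14.5 to 439 TPM and *Aqcoe5G147100* from 15.6 to 367 TPM. In all of them s4 replicate 4 was the highest library of its stage. Most of the high-r end moved far less: the median fold between the highest and the lowest library of a stage was 2.06 (s1), 2.88 (s2), 3.03 (s3) and 3.74 (s4) over the 100 members, beside 1.5, 1.70, 1.72 and 1.97 over all genes. A library held a single bud at s4 and a pair of buds at the other stages, so that their spreads are not like for like. The part of this difference was not tested.

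The genes closest to the anchor spanned a wide range of transcript lengths and levels. The highest r, 0.969, was that of *Aqcoe3G249100*, a transcript of 12364 bases that averaged 5.77 TPM and ran from 2.80 TPM (s4 replicate 5) to 10.3 TPM (s4 replicate 4). *Aqcoe3G259400* followed with the same rounded r and 17.6 to 62.9 TPM at s4. *Aqcoe3G102700*, next at an r of 0.958, was the most abundant of the leading 10 and ran from 400.1 to 1973 TPM at s4. *Aqcoe3G124600*, *Aqcoe5G349100*, *Aqcoe5G359100*, *Aqcoe3G326700*, *Aqcoe6G286200*, *Aqcoe5G050300* and *Aqcoe2G257400* completed the leading 10, with r between 0.953 and 0.957. Their swings were unequal, with a within-stage SD on the log2 scale of 0.26 for *Aqcoe6G286200* and of 0.70 for *Aqcoe3G326700*, so that a high r marked a shared order of the libraries and not a shared amplitude.

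At the low-r end the only annotated member was *Aqcoe5G466500*, the homolog of *BIP2*, an Hsp70 chaperone of the endoplasmic reticulum (r = -0.937, 2395 bases). It was a low transcript, with a lowest, median and highest value of 1.21, 3.44 and 7.56 TPM at s1, 1.12, 3.27 and 8.99 TPM at s2, 3.25, 6.25 and 13.2 TPM at s3, and 2.46, 10.3 and 19.8 TPM at s4. Its lowest library was replicate 5 of s1, replicate 7 of s2, replicate 7 of s3 and replicate 4 of s4, the same libraries in which *Aqcoe1G257200* was highest. Whether reads of this locus were shared with other Hsp70 genes was not tested.

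The lowest r, -0.959, was that of *Aqcoe3G354000* (844 bases), with a lowest, median and highest value of 153, 411 and 463 TPM at s4 and of 172, 258 and 347 TPM at s1. *Aqcoe5G469100*, the most abundant low-r member, had 579, 1416 and 1726 TPM at s4 and 979, 1418 and 1684 TPM at s1. Its medians at s4 and s1 lay close together while its libraries spread over 2.98-fold at s4. *Aqcoe7G427000*, *Aqcoe3G394500*, *Aqcoe3G091600*, *Aqcoe5G226600*, *Aqcoe6G012100*, *Aqcoe5G054000*, *Aqcoe2G276800* and *Aqcoe2G261200* made up the rest of the lowest 10, with r between -0.955 and -0.950. The widest swings of this end, again named after their values had been seen, were those of *Aqcoe7G270600*, from 103 to 1278 TPM at s4, and *Aqcoe7G326200*, from 0.109 to 13.2 TPM at s4. Both were lowest in s4 replicate 4.

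Membership had no natural border. Just inside the high limit lay *Aqcoe3G300200*, *Aqcoe4G001100* and *Aqcoe2G261900* with r of 0.9352, 0.9351 and 0.9350, and just outside it *Aqcoe2G021800*, *Aqcoe5G231600* and *Aqcoe6G307200* with 0.9348, 0.9345 and 0.9343. Just inside the low limit lay *Aqcoe3G350700*, *Aqcoe2G179800* and *Aqcoe3G434400* with -0.9301, -0.9298 and -0.9298, and just outside it *Aqcoe7G054700*, *Aqcoe5G045200* and *Aqcoe1G019700* with -0.9298, -0.9297 and -0.9294. Over all 14274 genes the quartiles of r were -0.638 and 0.624, and 4480 genes had an r of at least 0.5 and 4603 an r of at most -0.5. The 200 members were therefore the tips of a pattern in which 63.6% of genes took part at an absolute r of 0.5 or more. The first principal component of the stage-centred values held 59.2% of their variance, the second 5.62%, and the first had an absolute r of 0.950 with the anchor. Without s4 replicate 4 the first component held 52.5%.

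The ends mirrored each other library by library, as the rule sets. All members were chosen for their r with the same anchor in these libraries. High r within an end and a negative r between the ends follow from that. The mean of the 100 high-r members and the mean of the 100 low-r members, each relative to its stage, had an r of -0.989 over the 32 libraries. Within an end, the median r between 2 members was 0.943 for the high-r end and 0.939 for the low-r end. Since TPM values are shares of a fixed sum and all genes were read from the same libraries, these correlations share composition as well as depth. The plot of library means shows the order of the libraries in each stage.

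**Figure D2:**
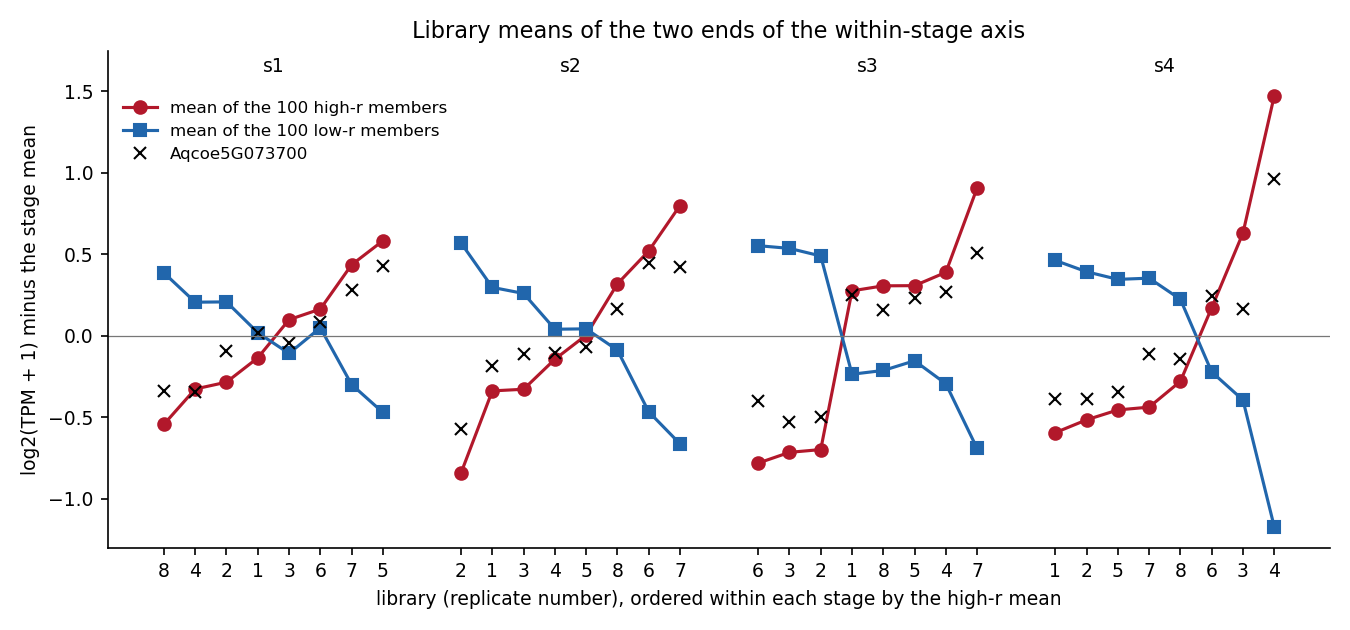
Mean log2(TPM + 1) relative to the stage mean for the 100 high-r members (red circles), the 100 low-r members (blue squares) and *Aqcoe5G073700* (crosses) in each library, ordered within each stage by the high-r mean. The libraries at the ends of a stage are mirror images, from -0.54 to 0.58 for the high-r mean at s1 and from -0.59 to 1.47 at s4, where replicate 4 stands furthest up. The mirroring follows from the choice of members.

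In each stage 1 library was the highest for at least 81 of the 100 high-r members and the lowest for at least 81 of the 100 low-r members. The opposite extreme at s3 and s4 was shared among several libraries. At s1, replicate 5 was the highest library for 81 of 100 high-r members and the lowest for 89 of 100 low-r members. Its mean stood at 0.58 above the stage mean for the high-r end and at -0.47 for the low-r end on the log2 scale. The opposite library of s1 was replicate 8, lowest for 79 high-r members and highest for 86 low-r members. The summed level of the 100 high-r members was 22028.5 TPM in replicate 5 and 6962 TPM in replicate 8, and that of the low-r members 11564 and 21068 TPM. Such sums weigh the most abundant members most, and *Aqcoe1G257200* takes a large part of the high-r sum in the highest libraries. The median over the high-r members was 75.6 TPM in replicate 5 and 35.7 TPM in replicate 8.

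At s2, replicate 7 was the highest library for 89 high-r members and the lowest for 82 low-r members, with replicate 6 taking the rest. Replicate 2 was the lowest library for 100 of 100 high-r members and the highest for 89 low-r members. The high-r end summed to 27953 TPM in replicate 7 and 5429 TPM in replicate 2, and the low-r end to 9814 and 22993 TPM. *Aqcoe1G257200* alone made up 11389 of the 27953 TPM. The span between the extremes of the high-r mean was larger than at s1, from -0.84 to 0.80.

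At s3 the libraries fell into separate clusters on both measures. Replicate 7 was the highest for 100 of 100 high-r members and the lowest for 96 low-r members. Replicates 2, 3 and 6 lay together at the other side, with high-r means of -0.70, -0.71 and -0.78, and the remaining 4 libraries lay between 0.28 and 0.39. The high-r end summed to 29571 TPM in replicate 7 and 5736 TPM in replicate 6, and the low-r end to 9439 and 22425 TPM. *Aqcoe1G257200* alone made up 11690 of the 29571 TPM.

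At s4, replicate 4 stood apart from the other libraries of its stage. It was the highest library for 100 of 100 high-r members and the lowest for 100 of 100 low-r members, with means of 1.47 and -1.17. Its high-r sum of 29878 TPM compared with 13009.9 TPM in replicate 3, the next highest, and with 4678 TPM in replicate 1, the lowest. *Aqcoe1G257200* alone made up 9942 of the 29878 TPM. The 5 libraries with a high-r mean below the stage mean (replicates 1, 2, 5, 7 and 8) lay between -0.59 and -0.28. The high-r sum of replicate 4 lay close to the 29571 TPM of s3 replicate 7, and its low-r sum of 8232 TPM was the lowest of the 32 libraries.

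Genes chosen without a stage were also read in that stage, against the same anchor. When the choice was repeated on the 24 libraries of the other stages and the 100 and 100 genes were read in the 8 libraries left out, the median r of the high-r genes was 0.885 for s1, 0.936 for s2, 0.953 for s3 and 0.915 for s4. The low-r genes had medians of -0.846, -0.890, -0.944 and -0.936 in the same order of stages. All 100 genes of either end kept their sign in each of the 4 stages, where 53.2%, 54.0%, 52.5% and 44.9% of all genes had an r above 0 in s1, s2, s3 and s4 and 46.8%, 46.0%, 47.5% and 55.1% one below 0. In s4 without replicate 4 the medians were 0.780 and -0.834 over 7 libraries, again with 100 of 100 genes of the same sign. These choices shared 56 to 79 genes with the high-r end and 57 to 73 with the low-r end. The anchor was the same throughout, and 63.6% of all genes had an absolute r of at least 0.5 over the 32 libraries. Kept signs at the tips of r are therefore a description and no independent support, and the shares over all genes are no yardstick for them.

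Some library measures moved along with the axis. Relative to the stage means, the number of transcripts with a count had an r of -0.641 with the anchor over the 32 libraries, the share of TPM in the 100 most abundant transcripts 0.629, and the mean transcript length weighted by counts 0.683. The last was positive within each stage (0.941 in s1, 0.659 in s2, 0.659 in s3 and 0.874 in s4, 8 libraries each). Weighted by TPM instead, the mean length had an r of 0.151, with 0.519, 0.348, 0.426 and -0.404 in the same order of stages. Within single stages the r of the transcript number ran from -0.305 in s1 to -0.746 in s4. That of the share in the 100 most abundant transcripts ran from 0.107 in s1 to 0.863 in s4. Without s4 replicate 4 these 2 measures had an r of -0.516 and 0.506 over 31 libraries. The total count had an r of -0.187, and the gap between length and effective length, which reflects the fragment sizes estimated for each library, 0.038. Library totals ran from 21502100 to 31647300 counts. The part of these measures in the axis was not tested.

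The rule removed the stage means, but it chose members on the spread within stages, which sets the error of a test between stages. With a median within-stage SD of 0.53 for the high-r and 0.42 for the low-r end, beside 0.26 over all genes on the log2 scale, fewer calls and a smaller share of variance between stages follow from the choice, and the counts below are read as descriptions of single members only. Estimated counts were compared with edgeR's quasi-likelihood test in a fit over all 32 libraries. Calls needed an adjusted p (Benjamini-Hochberg) under 0.05 together with a change of at least 1 on the log2 scale in either direction, and each fold change is the later stage over the earlier. All 200 members were among the 20477 genes tested. Stage accounted for a median of 10.9% of the log2(TPM + 1) variance of a high-r member and 7.0% of that of a low-r member, beside 14.9% over all genes, a share whose denominator holds the variance that the rule used.

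From s1 to s4, 0 of 100 high-r and 2 of 100 low-r members were called, where 9.24% of all genes tested were called (7.31% of all as higher and 1.94% as lower at s4). *BIP2* homolog *Aqcoe5G466500* rose, with a median of 10.3 TPM at s4 and 3.44 TPM at s1 (log2 fold change 1.83, SE 0.42, adjusted p = 0.00131 in edgeR). Its groups overlapped in s4 replicate 4, which at 2.46 TPM lay below 6 of the 8 libraries of s1. *Aqcoe6G068200* (2473 bases) also rose, with 24, 128 and 175 TPM as lowest, median and highest at s4 and 26.5, 59.3 and 88.9 TPM at s1 (log2 fold change 1.05, SE 0.38, adjusted p = 0.0422 in edgeR). Leaving out any of 10 libraries (s4 replicates 1, 2, 5, 7 and 8 and s1 replicates 1, 3, 5, 6 and 7) ended this call, at log2 fold changes of 0.93 to 1.07.

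By the adjusted p alone, 3 high-r members were lower at s4 than at s1 and 0 were higher, where 10% of all genes were lower and 15.2% higher, 25.2% in either direction. They were *Aqcoe5G267700* (log2 fold change -0.79), *Aqcoe3G380800* (-0.50) and *Aqcoe1G454500* (-0.41). Of the low-r members, 12 were higher and 1, *Aqcoe3G297000* (-0.86), was lower. At an unadjusted p under 0.05 the counts were 7 high-r and 32 low-r members, where 37.1% of all genes passed, and DESeq2 called 0 and 2. The smaller shifts had a common direction: 97 of 100 low-r members had a fitted log2 fold change above 0 and a median of 0.32, and 22 of 100 high-r members had one above 0 with a median of -0.17, beside 51.7% and 0.014 over all genes. Since the members move together within a stage, their directions are not independent of each other.

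A single library decided how far the high-r end was lower at s4. Without s4 replicate 4, edgeR called 5 high-r members as lower at s4 than at s1, where 2.71% of all genes were called lower, and 41 were lower by the adjusted p, where 15.6% of all genes were. This library was the highest of its stage for every high-r member and was singled out after its values had been seen. Leaving it out lowers their s4 mean and takes their highest s4 value out of the spread that sets the error. For every low-r member it was the lowest of its stage, and the reverse holds. The counts without it, here and from s3 to s4, are therefore descriptions, and the shares over all genes are no yardstick for them. The median log2 fold change without this library was -0.55 for the high-r end and 0.41 for the low-r end. The 5 were *Aqcoe5G309900* (-2.98), the *DRM1* homolog *Aqcoe1G257200* (-2.51), *Aqcoe2G401400* (-1.25), *Aqcoe3G038600* (-1.24) and *Aqcoe5G267700* (-1.14), with adjusted p between 0.000674 and 0.0269. With all libraries *Aqcoe1G257200* had a log2 fold change of -0.83 (SE 0.91, adjusted p = 0.539 in edgeR), and its s4 median of 245 TPM stood beside an s1 median of 2459.9 TPM. The 2 low-r calls were made without that library as well, at 1.97 and 1.19, where 7.16% of all genes were called higher, and by the adjusted p 37 low-r members were then higher, where 17.9% of all genes were, and 1 was lower.

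Between neighbouring stages no member was called with all libraries. From s1 to s2 0.596% of all genes were called, from s2 to s3 0.313% and from s3 to s4 1.19%. At an unadjusted p under 0.05 the counts of high-r and low-r members were 0 and 0 from s1 to s2, 0 and 1 from s2 to s3, and 2 and 16 from s3 to s4, where 7.86%, 7.49% and 17.5% of all genes passed in these comparisons. DESeq2 called 0 members in the same comparisons. By the adjusted p alone, 3.58% of all genes passed from s3 to s4, 1.87% higher and 1.71% lower, and 0 members. The median log2 fold change from s3 to s4 was -0.28 for the high-r end and 0.29 for the low-r end, and from s1 to s2 and from s2 to s3 the medians of both ends lay between 0.012 and 0.063. Without s4 replicate 4, 3 high-r members were called as lower at s4 than at s3, *Aqcoe5G309900* (-3.21), *Aqcoe5G091000* (-1.47) and *Aqcoe3G197200* (-1.19), where 0.976% of all genes were called lower. No low-r member was called in that fit (0 of 100), where 1.28% of all genes were called higher. By the adjusted p, 18 high-r members were then lower, where 5.09% of all genes were, and 4 low-r members higher, where 4.40% were.

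**Figure D3:**
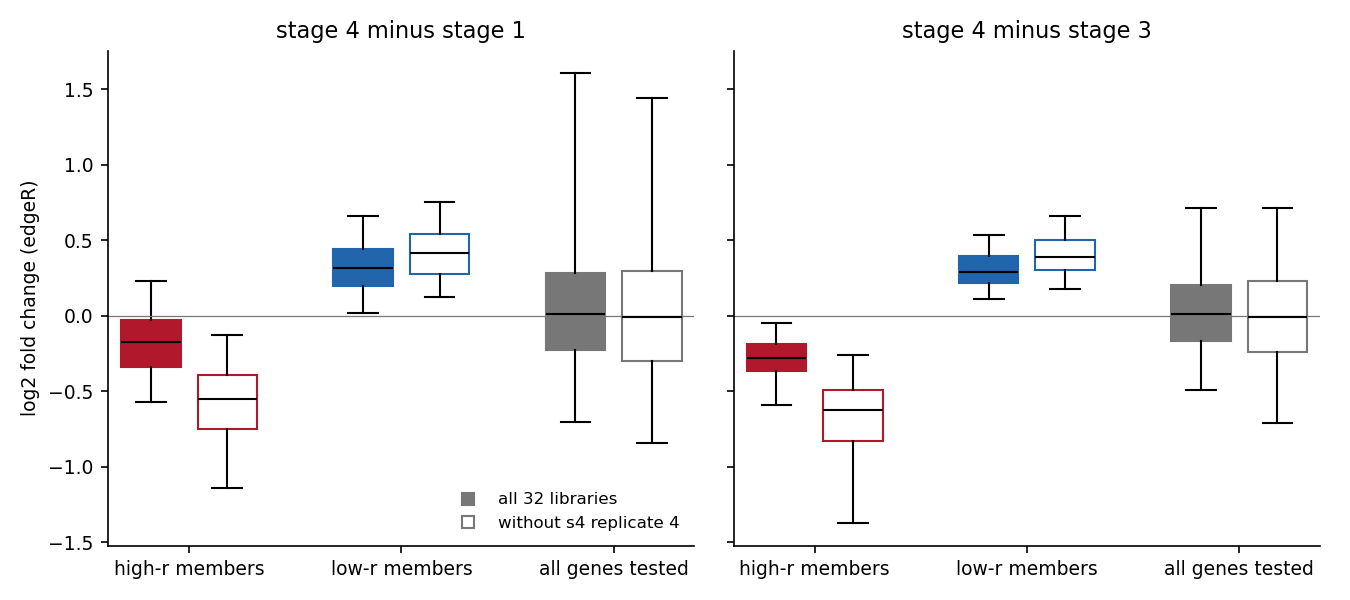
edgeR log2 fold changes of the 100 high-r members, the 100 low-r members and all genes tested, for s4 minus s1 and s4 minus s3, as median, quartiles and the 5th to 95th percentile; filled boxes use all 32 libraries and open boxes leave out s4 replicate 4. Leaving it out moved the high-r median from s1 to s4 to -0.55, from -0.17 with all libraries, and the low-r median to 0.41, from 0.32.

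The ends differed in transcript length, which the rule did not use. High-r transcripts had a median length of 1923 bases and low-r transcripts one of 1120.5 bases, beside 1656 bases over all 14274 genes. Transcripts shorter than 1000 bases made up 14 of the 100 high-r and 44 of the 100 low-r members, beside 20% of all genes, and transcripts of 3000 bases or more 22 and 0, beside 12.5%. The widest swings of the high-r end were nonetheless found in short transcripts, such as *Aqcoe1G257200* (668 bases) and *Aqcoe5G473900* (609 bases). Over all genes, the median r was 0.262 below 500 bases, -0.109, -0.117 and -0.085 in the bins from 500 to 2000 bases, 0.009 from 2000 bases, 0.148 from 3000 bases and 0.473 from 4000 bases. The part of length in the axis was not tested. When the members were chosen on log2 CPM, the median length was 1822.5 bases for the high-r end and 1399.5 bases for the low-r end. These values are not divided by length and are also scaled between libraries in another way, and the part of each was not tested.

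**Figure D4:**
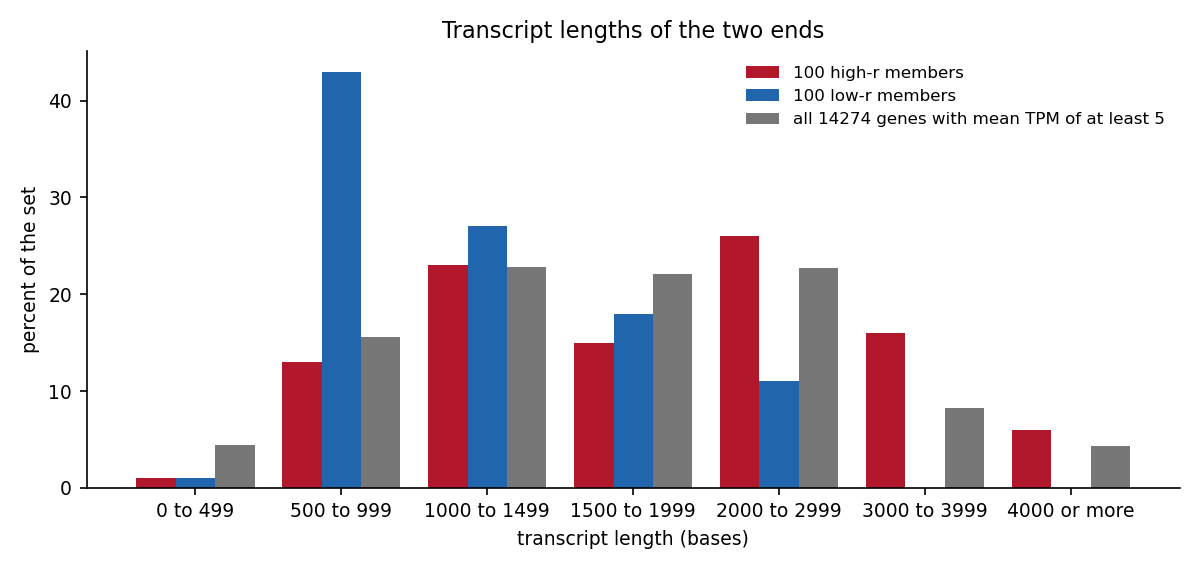
Percent of the 100 high-r members (red), the 100 low-r members (blue) and all 14274 genes with a mean of at least 5 TPM (grey) in each bin of transcript length in bases. The low-r end peaks at 500 to 999 bases with 43 members and has none from 3000 bases up, where the high-r end has 22.

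Members were also more abundant than most genes, with a median of the mean TPM of 53.2 for the high-r and 94.3 for the low-r end, beside 22.9 over all genes. Members lay on all 7 chromosomes named in the locus numbers and, for 3 high-r members, on scaffolds without a chromosome number, with 21 high-r and 19 low-r members on chromosome 3, beside 15.2% of all genes, and 5 and 4 on chromosome 4, beside 5.73%. Neighbouring loci were rare: *Aqcoe1G383100* with *Aqcoe1G383200* and *Aqcoe3G087700* with *Aqcoe3G087800* in the high-r end, and *Aqcoe1G368300* with *Aqcoe1G368400* in the low-r end.

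Only 3 of the 200 members carried an *Arabidopsis* hit in the tables of the study, as did 4.71% of all 14274 genes. Those tables list loci that the study picked for stage differences or for module membership in these libraries. The annotated loci with a mean of at least 5 TPM, 673 in all, had a median r of -0.182, with 22.3% at or above 0.5 and 34.8% at or below -0.5, beside a median of -0.005 and shares of 31.4% and 32.2% over all genes. The counts for gene lists drawn from these loci are descriptions to be read against those shares.

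Of 10 heat shock genes with a mean of at least 5 TPM, 7 had an r of at most -0.5 and 0 one of at least 0.5 (median -0.574), and this list includes the member *Aqcoe5G466500*. The HSP20-like gene *Aqcoe5G438600* had an r of -0.880 and ran from 90.8 to 1559 TPM over the libraries. Of the microtubule genes, 5 of 6 had an r of at most -0.5 (median -0.698), and of the ribosome genes 4 of 5 (median -0.576), which was 2 of 5 without s4 replicate 4.

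Of 10 auxin genes with a mean of at least 5 TPM, 7 had an r of at least 0.5 and 2 one of at most -0.5 (median 0.670). The highest was *Aqcoe5G089500*, of the dormancy/auxin associated family (r = 0.905), which ran from 115 to 3121 TPM over the libraries. The homolog of *GH3.5* (*Aqcoe4G269800*, 0.863), an enzyme that conjugates auxin to amino acids, also lay high, whereas that of the auxin influx carrier *LAX2* (*Aqcoe6G211400*) had an r of -0.830.

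The study associated the brown and magenta modules with s4 and chose their hub genes on these libraries, so that their r is no independent evidence. Brown hub genes with negative membership had a median r of 0.790 and 19 of 20 an r of at least 0.5, and those with positive membership a median of -0.725 and 31 of 31 an r of at most -0.5. Of the magenta hub genes, 2 of 13 had an r of at least 0.5 and 2 one of at most -0.5 (median -0.160). Without s4 replicate 4 the counts of brown hubs were 19 and 26. The brown hubs with negative membership include *Aqcoe7G340300* itself and the homologs of *AGO10* (*Aqcoe7G204100*, 0.853), which acts with small RNAs, of the auxin receptor *TIR1* (*Aqcoe2G310400*, 0.845) and of the growth regulator *GRF4* (*Aqcoe2G129900*, 0.822). The 9 energy metabolism hubs, among them those for *VDAC2* (*Aqcoe6G280700*, -0.882), a channel of the outer mitochondrial membrane, and *ATP3* (*Aqcoe6G085000*, -0.863), a subunit of the mitochondrial ATP synthase, had a median of -0.742 and all an r of at most -0.5 (8 of 9 without s4 replicate 4). They were picked by function from the hub genes of the study, so that their r is no independent evidence either.

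The 9 floral meristem and primordium markers had r from -0.696 to 0.271 with a median of -0.136, 3 of them at most -0.5 (*AS1*, *LAS* and *PAN* homologs), and the carpel marker, a *CRC* homolog, had -0.198. Of the photosynthesis genes, 3 of 9 had an r of at least 0.5 and 0 one of at most -0.5 (median 0.069). Of 16 ubiquitin genes 6 lay at or above 0.5 and 4 at or below -0.5 (median 0.096), and of 57 transcription factors 10 and 14 (median 0.005). Of the 2 stomatal markers, the 1 with a mean of at least 5 TPM had an r of 0.005. The median r was -0.166 for the green module hubs (0.020 without s4 replicate 4), -0.311 for cell wall, -0.303 for cytochrome P450, -0.328 for peroxidase and -0.535 for GDSL-like lipase genes, beside -0.182 over the annotated loci. The share of each tissue in a library was not tested.

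**Figure D5:**
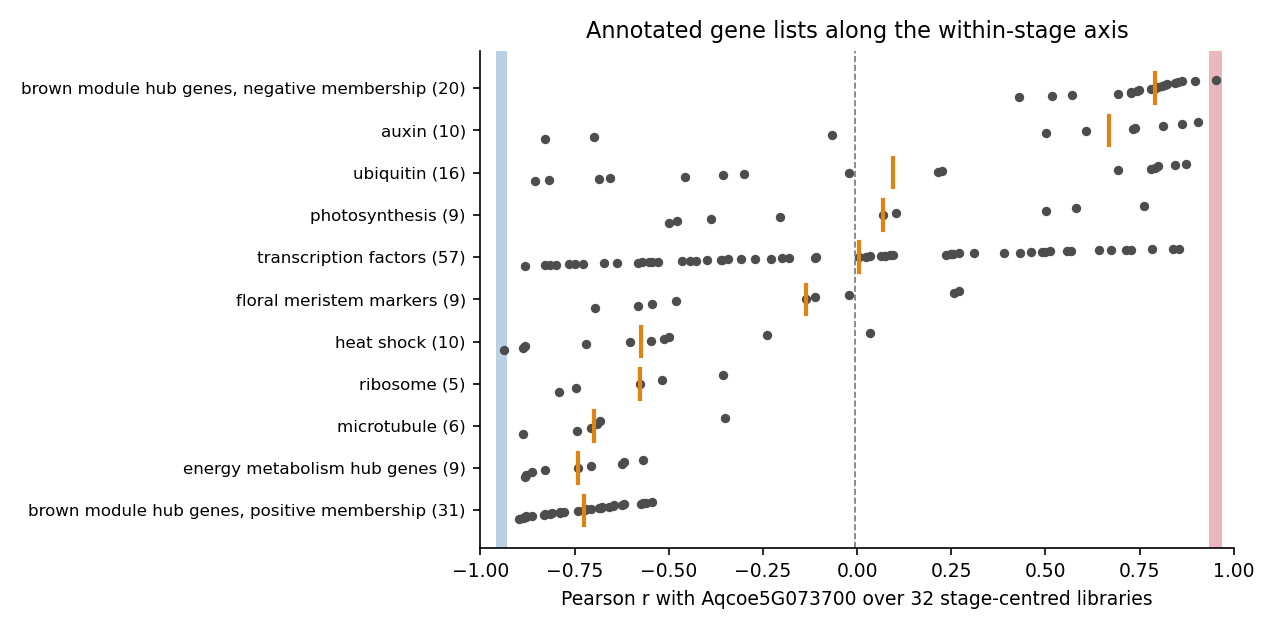
Pearson r with *Aqcoe5G073700* over the 32 stage-centred libraries for the genes of 11 lists with a mean of at least 5 TPM, 1 point per gene, with the list median in orange and the number of genes in brackets; the shaded bands are the r ranges of the high-r (red) and low-r (blue) members, and the dashed line is the median over all genes. The negative brown hubs and auxin genes lie mostly to the right, and the energy metabolism, heat shock, microtubule and positive brown hub genes to the left. The energy metabolism genes were picked from the hub genes of the study and are no separate evidence.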

How the data were processed

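RNA-seq of 32 floral bud libraries was used, with stage and replicate number taken from the sample labels. According to the methods of the study, the authors made cDNA with the SMART-Seq v4 kit and libraries with Nextera XT, trimmed the paired-end reads and quantified transcripts by pseudo-alignment (kallisto 0.46.1) against the *Aquilegia* × *coerulea* ‘Goldsmith’ reference transcriptome. The deposited files hold, per transcript, the estimated count, which is not normalized and need not be whole, and the TPM, which the authors' tool derived from that count after division by effective length. TPM removes transcript length and depth but makes the values of a library depend on each other. Library totals ran from 21502100 to 31647300 counts, and 0 pairs of files were identical.

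Members were chosen on log2(TPM + 1) with a minimum mean of 5 TPM, as described with the results. Stage was tested on rounded estimated counts with edgeR 4.0.16 (R 4.3.3), TMM scaling, more than 1 CPM in at least 1 library and Benjamini-Hochberg adjustment over all 20477 genes tested. P-values measure the spread between libraries and treat these as independent, although the study took several buds from some plants. All stages shared 1 estimate of the spread of a gene, although the SD of the high-r mean ran from 0.39 at s1 to 0.73 at s4. Python 3.11.15, numpy 2.4.6, pandas 2.3.3 and matplotlib 3.10.9 served for the rest, and the code was tested on simulated data. Alternatives were DESeq2 1.42.0, RLE factors, length-scaled TPM counts, other filters, only the 16 libraries compared, a replicate block, other minimum TPM, pseudocount, correlation, values and anchors, and leaving out stages or libraries.

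The members and the gene lists were chosen with earlier results of these data known. Named genes are both anchors, the 10 highest and 10 lowest r, 3 on each side of both limits, every annotated member and the called members. Genes of wide swing, list genes and those passing without s4 replicate 4 were named after their values had been seen. Symbols and *Arabidopsis* hits come from the tables of the study. Sequences are not used here.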

Additional observations from a re-analysis of the deposited data

Results flagged for a closer look

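In 28 of 192 combinations of a gene or a summed level with a stage, a single library lay far from the other 7 of its stage. The measure was its gap to the nearest library divided by the range of the stage, taken on TPM and set against Dixon's limit for 8 libraries. Chance passes that limit in about 1 of 20 cases for normally distributed values, which was not checked for TPM. High values stand further out on TPM than on the log2 scale and low values less far. All 28 cases were the highest library of their stage, and no low-r member was among them. The genes were chosen for their spread within stages, some of them after wide swings had been seen, and they move together, so the 28 cases are not independent and are given as values only.

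At s4 the library was replicate 4 in all 17 cases and the highest of its stage. The gap was 0.669 of the range for the summed level of the high-r end (29878 TPM, next 13009.9 TPM), 0.644 for *Aqcoe5G073700* and 0.595 for *Aqcoe7G340300*. In the summed level, *Aqcoe1G257200* alone made up 9942 of the 29878 TPM. Among the leading high-r members it was 0.545 for *Aqcoe3G249100*, 0.696 for *Aqcoe3G102700*, 0.622 for *Aqcoe5G359100*, 0.729 for *Aqcoe3G326700* and 0.530 for *Aqcoe2G257400*. Beside the high limit it was 0.655 for *Aqcoe4G001100*, 0.548 for *Aqcoe2G261900* and 0.861 for *Aqcoe5G231600*, the last just outside. In the members of wide swing it was 0.893 for *Aqcoe5G309900* (563 TPM, next 63.4 TPM), 0.842 for *Aqcoe7G173100*, 0.796 for *Aqcoe2G056600*, 0.786 for *Aqcoe5G473900*, 0.741 for *Aqcoe1G257200* (9942 TPM, next 2623 TPM) and 0.729 for *Aqcoe5G147100*.

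At s3 replicate 7 was the highest library in all 6 cases, with gaps of 0.684 for *Aqcoe5G231600*, 0.581 for *Aqcoe1G257200*, 0.685 for *Aqcoe5G309900*, 0.638 for *Aqcoe5G473900*, 0.562 for *Aqcoe2G056600* and 0.646 for *Aqcoe7G173100*. At s2 replicate 7 was the highest in all 5 cases, with 0.749 for *Aqcoe5G231600*, 0.575 for *Aqcoe1G257200*, 0.682 for *Aqcoe5G309900*, 0.555 for *Aqcoe5G473900* and 0.672 for *Aqcoe7G173100*. At s1 there were 0 cases.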

How the results depend on the processing

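The choice of members depended on the anchor and the libraries more than on the filter. Of the high-r members, 57 of 100 were chosen again with *Aqcoe7G340300* as anchor, 43 with the first principal component and 56 without s4, and of the low-r members 53, 35 and 61. The low-r end also kept 60 with Spearman's rho, 54 with log2 CPM and 57 without s2, and other settings kept 69 to 98 high-r and 70 to 100 low-r members. Leaving out 1 library kept 70 (without s4 replicate 4) to 98 high-r and 65 (without s4 replicate 6) to 97 low-r members. The median length of the high-r end was 2014.5, 1799 and 1822.5 bases with a minimum of 1 TPM, of 20 TPM and with log2 CPM and 1820 to 2103 bases with 1 library left out, and that of the low-r end 1399.5 bases with log2 CPM and 933.5 to 1240.5 bases with 1 library left out, always below the high-r end under the same setting.

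Stage calls among members were 0 high-r and 2 low-r from s1 to s4 under the 7 other fits. Leaving out 1 library gave 0 to 5 high-r and 1 to 2 low-r calls from s1 to s4, and 0 to 3 high-r calls from s3 to s4, the highest counts without s4 replicate 4. By the adjusted p alone, DESeq2 passed 21 low-r members from s1 to s4, of which *Aqcoe3G297000* was lower at s4 (-0.85). The high-r members *Aqcoe3G380800* (-0.48) and *Aqcoe5G267700* (-0.77) passed as lower. The share of all genes that passed in DESeq2 is not given here, so that these counts have no yardstick. Over all genes, DESeq2 called 200 genes from s1 to s2 (122 in edgeR) and 110 from s2 to s3 (64), and the fits on 16 libraries 78 from s1 to s2 and 157 from s3 to s4 (243). Leaving out 1 library gave 73 to 160 genes from s1 to s2, 46 to 80 from s2 to s3, and 171 to 460 from s3 to s4.

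Replicate numbers did not pair the libraries: same-numbered libraries of different stages had r of -0.665 to 0.821 between their deviations, over 0.1 in 22 of 48 pairs, and 4 of 32 libraries lay closest to their own number. With the replicate block, 0 high-r and 2 low-r members were called from s1 to s4. Depth limits the lowest values, such as the 0.109 TPM of *Aqcoe7G326200* in s4 replicate 4.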
